A study of Mus musculus with 39 samples.

Results

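The Serpina1 and Serpina3 genes encode serpins, a family of protease inhibitors that hepatocytes secrete into blood. A serpin holds out a flexible reactive centre loop as bait, and the protease that cuts it is trapped in a covalent complex, so the bases that code for the loop set which protease is caught. Human SERPINA1 encodes alpha-1 antitrypsin, the main inhibitor of neutrophil elastase, and human SERPINA3 encodes alpha-1 antichymotrypsin, an acute-phase protein. In the mouse each of these single genes is a cluster of close copies, laid side by side on chromosome 12.

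The 10 genes described here are Serpina1a, Serpina1b, Serpina1c, Serpina1d, Serpina1e, Serpina3c, Serpina3h, Serpina3k, Serpina3m and Serpina3n, and all 10 were among the 11873 genes of the deposited table. They were chosen by name from the cluster after some of them had stood out in HLKO against Alb livers at 21% oxygen, so that contrast is given below as a description without a test. The tests of genotype at 6% oxygen use other libraries. The choice was still made with earlier results of these data known, so the independence of these tests from it is not established. The oxygen and time comparisons in HLKO and Alb, BLKO against Alb at 21% oxygen and the differences of oxygen response include HLKO or Alb libraries at 21% oxygen and are therefore not independent of the choice.

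Livers came from mice of 3 genotypes. HLKO mice were Alb-Cre+ Hif1a fl/fl and lose the oxygen-regulated transcription factor HIF-1alpha in cells that use the albumin promoter. BLKO mice were Alb-Cre+ Bmal1 fl/fl and lose the clock transcription factor BMAL1 (gene Arntl, chromosome 7) in the same cells. Alb mice carried Alb-Cre with no floxed allele, so all of them expressed the recombinase, and all were labelled C57BL/6, 3 to 5 months old and fed freely. They had been kept on 12 h of light a day for 2 weeks and stayed in darkness on the day of the experiment, when they breathed 6% or 21% oxygen for 4 h from circadian time 16 (CT16) or 4 (CT4). Each of the 12 groups had 3 libraries of total RNA, labelled A to C, and the 36 libraries held 1717589 to 5196957 counted reads. The letters name separate samples, and p-values measure the spread between these samples. Levels below are counts scaled by TMM to a common library size (CPM), fold changes are log2 ratios with their standard error from edgeR, and a call means an adjusted p under 0.05 over the 9483 genes tested. In whole liver, fewer cells of a type and less RNA per cell cannot be told apart.

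Hif1a itself lies on chromosome 12 of GRCm38/mm10 (73901375 to 73947530), 29.8 Mb from the first serpin. Every HLKO mouse carries the engineered Hif1a allele together with any chromosome 12 sequence that came with it, so loss of HIF-1alpha and alleles linked to it cannot be told apart in these data. Counts over the whole Hif1a gene were low in all genotypes, at 0 to 9.57 CPM in HLKO, 3.79 to 9.61 CPM in BLKO and 1.89 to 15.0 CPM in Alb libraries. The deleted exon is not given in the sources used here, so these counts are no check of the deletion. Arntl was at 0.990 to 23.2 CPM in HLKO, 6.07 to 14.5 CPM in BLKO and 2.44 to 22.1 CPM in Alb. The same limit holds for it. Summed hepatocyte markers (9 of 10 listed genes in the table) lay between 59357 and 99100 CPM in every library, and the 11 Kupffer cell markers together between 160.8 and 667.5 CPM. Among the controls, Alb CT4 21% A and Alb CT16 6% A stood apart from their partners (chi-square per degree of freedom 20.4 to 29.8 against them and 4.03 to 5.51 between their partners). Without Alb CT16 6% A, 5 members were called for HLKO against Alb at CT16 and 6% oxygen, as with it, and 0 in place of 1 for BLKO against Alb. Counts that change without Alb CT4 21% A are given beside them.

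By the GENCODE M21 annotation the 10 genes span 686 kb. On the minus strand, in order along the chromosome, lie Serpina1b (103728156 to 103830373), Serpina1d (103763594 to 103773592), Serpina1a (103853589 to 103863562), Serpina1c (103894926 to 103904887), Serpina1e (103946931 to 103958975) and Serpina3c (104146382 to 104153870). Serpina3h (104247905 to 104253669, a transcribed unprocessed pseudogene), Serpina3k (104338486 to 104346144), Serpina3m (104338486 to 104394257) and Serpina3n (104406729 to 104414329) follow on the plus strand. Serpina3k and Serpina3m share 60 exon bases.

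The stretch that codes for the reactive centre loop shows how the copies differ, so it is given for all members. The 60 bases start at the conserved hinge of the loop, are read from GENCODE M21 transcripts 5′ to 3′, and carry in capitals the positions at which members of the same family differ. For the pseudogene Serpina3h they are the part of its transcript that best matches the Serpina3k stretch. It was not shown that these bases of Serpina3h code for a loop.
Serpina1a: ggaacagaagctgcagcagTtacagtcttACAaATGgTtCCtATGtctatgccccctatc
Serpina1b: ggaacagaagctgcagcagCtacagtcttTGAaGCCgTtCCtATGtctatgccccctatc
Serpina1c: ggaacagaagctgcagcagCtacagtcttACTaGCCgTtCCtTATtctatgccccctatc
Serpina1d: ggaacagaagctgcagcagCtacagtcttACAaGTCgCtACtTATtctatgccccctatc
Serpina1e: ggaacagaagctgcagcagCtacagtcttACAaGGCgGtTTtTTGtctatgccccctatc
Serpina3c: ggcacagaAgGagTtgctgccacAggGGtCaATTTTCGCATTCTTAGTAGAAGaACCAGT
Serpina3h: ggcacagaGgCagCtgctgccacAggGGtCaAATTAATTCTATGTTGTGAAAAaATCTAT
Serpina3k: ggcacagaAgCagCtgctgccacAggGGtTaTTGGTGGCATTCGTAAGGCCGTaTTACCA
Serpina3m: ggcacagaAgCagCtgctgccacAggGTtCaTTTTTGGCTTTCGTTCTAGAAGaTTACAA
Serpina3n: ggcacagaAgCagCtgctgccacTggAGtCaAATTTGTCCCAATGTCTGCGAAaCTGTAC
The 5 Serpina1 copies differed at 13 of the 60 positions and the 5 Serpina3 copies at 35. Over whole coding sequences, loop included and with the whole transcript of Serpina3h in place of its open reading frame, the copies were 96.3% to 98.5% identical within Serpina1 (10 pairs), 82.3% to 92.5% within Serpina3 (10 pairs) and 64.5% to 67.3% between the families (25 pairs).

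This likeness limits how well reads can be assigned to a copy. Of the 50-base windows of each gene's exons, the share found in another gene was 57.6% for Serpina1a, 29.5% for Serpina1b, 74.2% for Serpina1c, 50.9% for Serpina1d and 34.6% for Serpina1e. In the Serpina3 family it was 4.25% for Serpina3c, 21.9% for Serpina3h, 14.04% for Serpina3k, 19.1% for Serpina3m and 6.90% for Serpina3n. How reads that match several copies were counted, and whether strand was used, is not given in the sources used here, so the split between Serpina1 copies is uncertain. Their sum is uncertain too if such reads were dropped, since the shared part differs between copies.

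The bases just upstream of the RefSeq starts were compared because members that lie side by side differed between genotypes in unlike ways. Upstream windows from RefSeq (GRCm38.p6) matched 7 of the 10 members by symbol. The stretches of Serpina1b and Serpina1e printed below lie inside the GENCODE M21 gene intervals given above. For these genes the RefSeq and GENCODE starts therefore differ. The 5 Serpina1 windows hold an aligned 80-base stretch on the minus strand, printed 5′ to 3′ with the 10 positions that differ in capitals.
Serpina1a, chr12:103863635-103863714: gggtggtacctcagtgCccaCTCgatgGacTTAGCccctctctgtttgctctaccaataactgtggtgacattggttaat
Serpina1b, chr12:103738210-103738289: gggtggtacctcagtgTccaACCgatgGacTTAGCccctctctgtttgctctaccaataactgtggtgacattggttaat
Serpina1c, chr12:103904972-103905051: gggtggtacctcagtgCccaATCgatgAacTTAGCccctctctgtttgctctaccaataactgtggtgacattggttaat
Serpina1d, chr12:103773644-103773723: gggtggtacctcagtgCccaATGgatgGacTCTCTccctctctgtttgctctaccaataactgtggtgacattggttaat
Serpina1e, chr12:103956970-103957049: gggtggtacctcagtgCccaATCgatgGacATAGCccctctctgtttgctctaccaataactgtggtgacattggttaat
Serpina3c and Serpina3n are compared in the same way over 100 bases, on the minus and the plus strand, with 7 positions in capitals.
Serpina3c, chr12:104153953-104154052: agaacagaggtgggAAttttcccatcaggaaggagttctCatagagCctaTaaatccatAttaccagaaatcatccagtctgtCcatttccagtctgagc
Serpina3n, chr12:104406525-104406624: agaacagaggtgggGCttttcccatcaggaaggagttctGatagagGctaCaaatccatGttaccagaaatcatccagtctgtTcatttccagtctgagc
Their whole upstream windows were 93.5% identical, although Serpina3c and Serpina3n behaved differently across genotypes. GTTAAT, the core of the site bound by the hepatocyte factor HNF1, was searched on both strands and found in 6 of the 7 windows, against 7.10% of the 32851 windows in the table. In Serpina1 it is the end of the printed stretch, at −78 to −16 from the start. In Serpina3c it lies at −239, outside the printed stretch. The window without it was that of Serpina3n. ACGTG and GCGTG, cores bound by HIF, were found in 0 of the 7 windows (19.6% and 32.4% of all windows). CACGTG, the E-box of clock factors, and TTCNNNGAA, the STAT site, were also found in 0 of 7 (7.15% and 8.30% of all; CACGTG holds ACGTG). A count of 0 says only that these letters are not in these short windows. More distant sequence was not searched. The Serpina1 windows were 91.7% to 98.4% identical to each other over their aligned bases. The 7 windows are therefore not independent, and none of these counts was tested against the share of all windows.

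Across the 36 libraries, 5 members separated the 12 HLKO libraries from the 24 others without overlap. Serpina3c and Serpina3h were higher in HLKO, and Serpina1d, Serpina1e and Serpina3m were lower. The other 5, which include the abundant Serpina1a, Serpina1b, Serpina1c and Serpina3k, overlapped. These ranges include the 21% oxygen libraries that chose the members and are a description.

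Serpina3c, a Serpina3 copy whose coding sequence is closest to that of Serpina3m (90.2% identical), had the widest gap of the 10. At CT16 and 6% oxygen it was at 630.1, 373 and 664 CPM in HLKO, against 2.44, 4.19 and 2.84 CPM in BLKO and 3.25, 4.135 and 10.1 CPM in Alb. At CT4 and 6% oxygen it was at 408, 624 and 545 CPM in HLKO, against 3.93, 2.31 and 3.04 CPM in BLKO and 2.36, 1.90 and 6.04 CPM in Alb. No HLKO library came near the range of the other genotypes. The log2 fold change of HLKO over Alb at 6% oxygen was 6.61 ± 0.39 at CT16 (adjusted p = 1.37e-13, edgeR) and 7.07 ± 0.42 at CT4 (adjusted p = 1.05e-13). Against BLKO it was 7.42 ± 0.41 at CT16 (adjusted p = 2.26e-14, edgeR) and 7.40 ± 0.43 at CT4 (adjusted p = 7.98e-14). The 21% oxygen libraries, in which it was chosen, held 567, 493 and 257 CPM at CT16 and 533, 682.5 and 482 CPM at CT4 in HLKO. Over all 36 libraries, the lowest HLKO value (257 CPM) was 24.8-fold above the highest value elsewhere (10.4 CPM).

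Serpina3h is annotated as a pseudogene and its transcript was rare. At CT16 and 6% oxygen it had 23, 30 and 24 reads in HLKO, against 3, 4 and 1 in BLKO and 0, 0 and 1 in Alb. At CT4 and 6% oxygen it had 55, 47 and 25 reads in HLKO, against 0, 2 and 1 in BLKO and 0, 3 and 4 in Alb. It passed the filter on low counts through the HLKO libraries (12 of 12 HLKO, 0 of 12 BLKO and 0 of 12 Alb libraries above 3.28 CPM) and therefore had to differ, so its calls are counted below but support nothing. Pooled over libraries and scaled for depth, HLKO over Alb was 125-fold at CT16 (77 against 1 read, 95% exact counting interval 21.8 to 5004) and 13.8-fold at CT4 (127 against 7 reads, 6.49 to 34.9). HLKO over BLKO was 17.4-fold at CT16 (77 against 8 reads, 8.40 to 41.7) and 29.3-fold at CT4 (127 against 3 reads, 9.82 to 144). These intervals cover counting error only.

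Serpina1e, one of the alpha-1 antitrypsin copies had the largest fall of the family in HLKO livers at 6% oxygen. At CT16 and 6% oxygen it was at 1460, 689.5 and 996 CPM in HLKO, against 13811, 13688 and 8479 CPM in BLKO and 11612, 23194 and 18821 CPM in Alb. At CT4 and 6% oxygen it was at 559.8, 860.2 and 1359 CPM in HLKO, against 14552, 12900 and 3083 CPM in BLKO and 22366, 11954 and 12724 CPM in Alb. The BLKO CT4 6% C library, at 3083 CPM, was low for its genotype and still above every HLKO library. HLKO over Alb was −4.09 ± 0.42 at CT16 (adjusted p = 8.96e-08, edgeR) and −4.08 ± 0.42 at CT4 (adjusted p = 9.30e-08). HLKO over BLKO was −3.52 ± 0.41 at CT16 (adjusted p = 1.75e-07, edgeR) and −3.46 ± 0.41 at CT4 (adjusted p = 4.60e-07). At 21% oxygen HLKO livers had 1062, 602 and 892 CPM at CT16 and 1242, 994 and 1219 CPM at CT4.

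Serpina1d, another alpha-1 antitrypsin copy, was lower in the same libraries by a smaller amount. At CT16 and 6% oxygen it was at 2045, 1516 and 1890.0 CPM in HLKO, against 5649, 4537 and 5915 CPM in BLKO and 6068, 6173 and 5339 CPM in Alb. At CT4 and 6% oxygen it was at 1182, 990.1 and 1727 CPM in HLKO, against 6615, 6146 and 5576 CPM in BLKO and 6053, 5510.0 and 4977 CPM in Alb. The groups did not overlap at either time. HLKO over Alb was −1.69 ± 0.17 at CT16 (adjusted p = 5.39e-08, edgeR) and −2.09 ± 0.17 at CT4 (adjusted p = 3.31e-10). HLKO over BLKO was −1.56 ± 0.17 at CT16 (adjusted p = 3.63e-08, edgeR) and −2.23 ± 0.17 at CT4 (adjusted p = 4.44e-11).

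Serpina3m, a moderately expressed Serpina3 copy, was the third member that was lower in HLKO and the one that also differed between BLKO and Alb. At CT16 and 6% oxygen it was at 107, 167 and 152 CPM in HLKO, against 249.9, 277 and 352 CPM in BLKO and 483, 535.5 and 413 CPM in Alb. At CT4 and 6% oxygen it was at 158, 80.7 and 77.3 CPM in HLKO, against 231, 255 and 277 CPM in BLKO and 419.6, 313 and 359 CPM in Alb. HLKO was lowest, BLKO next and Alb highest in these libraries. HLKO over Alb was −1.74 ± 0.22 at CT16 (adjusted p = 3.26e-06, edgeR) and −1.78 ± 0.22 at CT4 (adjusted p = 2.80e-06). HLKO over BLKO was −1.04 ± 0.22 at CT16 (adjusted p = 0.000702, edgeR) and −1.26 ± 0.22 at CT4 (adjusted p = 0.000120). Over all conditions the separation of HLKO from the other genotypes was narrow, with a highest HLKO value of 167 CPM and a lowest value elsewhere of 168 CPM (BLKO CT16 21% B).

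**Figure D1:**
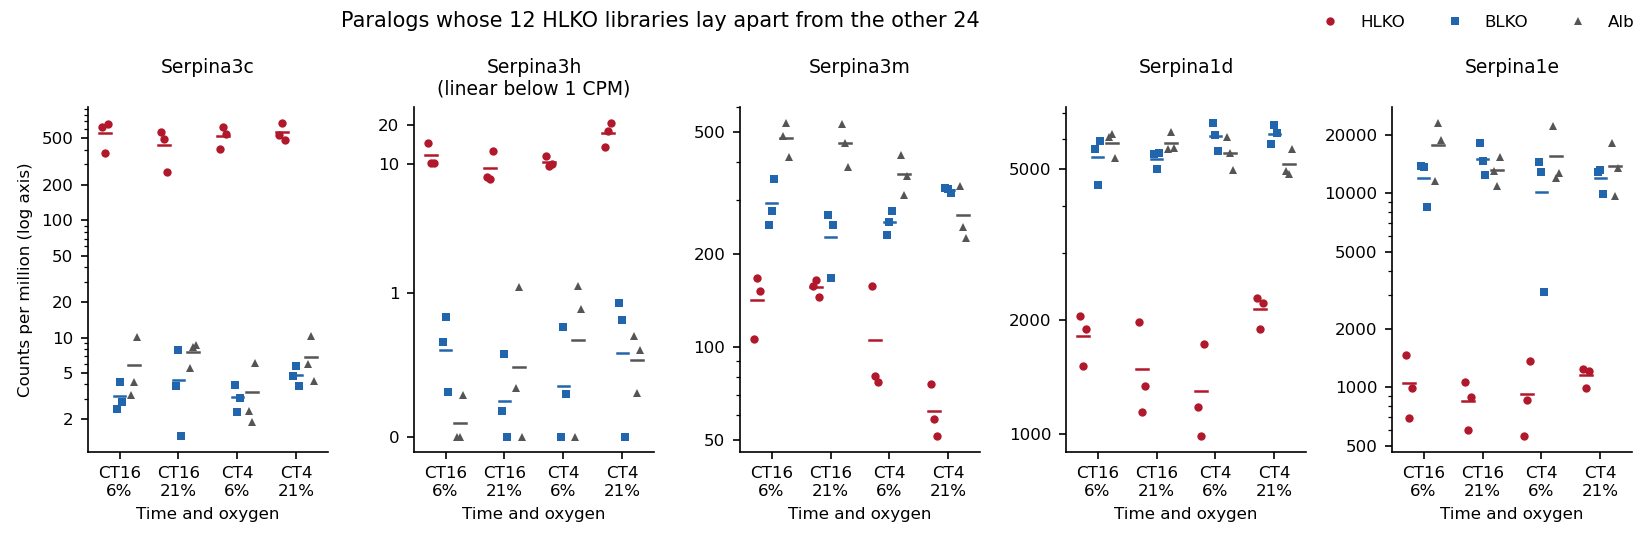
Level of the 5 members whose HLKO libraries did not overlap those of the other genotypes, in CPM on a log axis, one point per library in each of the 12 groups, with bars at group means. HLKO points of Serpina3c lie at 257 CPM and above while no other library exceeds 10.4 CPM, and HLKO points of Serpina1e lie at 1460 CPM and below while no other library is under 3083 CPM.

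In total, 5 of the 10 members were called for HLKO against Alb at 6% oxygen at CT16, where 9.88% of all tested genes were called, and 5 of 10 at CT4, where 3.50% were. At each time 2 were higher and 3 lower. These counts, and those against BLKO below, include Serpina3h, which passed the filter through HLKO libraries and whose calls support nothing. The other called members were Serpina3c, Serpina1d, Serpina1e and Serpina3m. The median log2 fold change of the 10 members was −0.145 at CT16 and −0.198 at CT4, against 0.00866 and 0.00553 over all tested genes, since members moved both ways. The members that were not called lay between −0.329 and 0.275 at CT16 (lowest adjusted p 0.188, edgeR) and between −0.467 and −0.0182 at CT4 (lowest adjusted p 0.185). Against BLKO at 6% oxygen, 6 of 10 were called at CT16, with 22.6% of all genes called, and 6 of 10 at CT4, with 10.7%. The sixth was Serpina1b at CT16 and Serpina1a at CT4. The comparisons of HLKO with Alb and with BLKO share the HLKO libraries.

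Both extra calls were small. Serpina1b was at 8057, 6630.0 and 9057 CPM in HLKO and 6614, 4754 and 6945 CPM in BLKO at CT16 and 6% oxygen, ranges that overlap. Its log2 fold change was 0.37 ± 0.14 (adjusted p = 0.0422, edgeR), and the adjusted p was 0.052 to 0.305 without BLKO A, BLKO B, HLKO A or HLKO C and 0.132 in a fit of the compared groups alone. Serpina1a was at 4864, 5056 and 5442 CPM in HLKO and 7192, 6894 and 5648 CPM in BLKO at CT4 and 6% oxygen, which do not overlap. Its log2 fold change was −0.36 ± 0.11 (adjusted p = 0.0320, edgeR), and the adjusted p was 0.106 to 0.188 without BLKO A, BLKO B, HLKO A or HLKO B and 0.0659 in a fit of the compared groups alone.

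**Figure D2:**
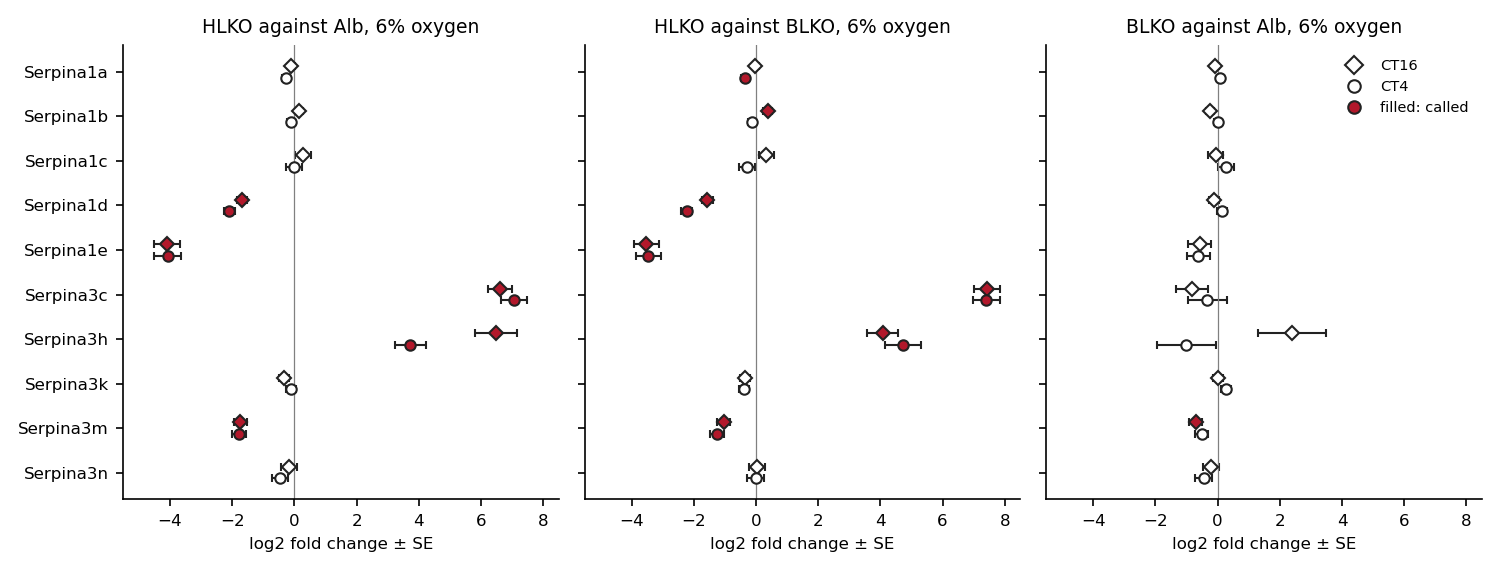
Log2 fold change with its standard error for the 10 members at 6% oxygen, for HLKO over Alb, HLKO over BLKO and BLKO over Alb, with diamonds for CT16, circles for CT4 and filled symbols for adjusted p under 0.05. Serpina3c and Serpina3h lie on the right and Serpina1d, Serpina1e and Serpina3m on the left in both HLKO comparisons, while the points for BLKO over Alb lie nearer to 0, apart from Serpina3h, which had 1 to 8 reads per group in BLKO and Alb.

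The 21% oxygen livers, where the choice was made, showed the following values, which are a description. HLKO over Alb was 5.85 ± 0.38 at CT16 and 6.35 ± 0.39 at CT4 for Serpina3c, −3.95 ± 0.42 and −3.59 ± 0.41 for Serpina1e, −1.98 ± 0.17 and −1.27 ± 0.17 for Serpina1d, and −1.55 ± 0.22 and −2.12 ± 0.23 for Serpina3m. Serpina3h was at 23.1-fold (78 against 4 reads, 8.67 to 86.9) and 33.6-fold (148 against 5 reads, 14.1 to 105). Serpina1c, whose reads are the most shared with other copies, was at 0.34 and 0.84 ± 0.25. The remaining 4 members lay between −0.41 and 0.27.

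The members whose HLKO libraries overlapped the others carry most of the family's RNA. Over all conditions Serpina1a had a median of 5792 CPM in HLKO and 6496 CPM in the other 24 libraries. Serpina1b had 7099 and 6942 CPM, and Serpina1c 12757 and 10609 CPM. Serpina3k, the main Serpina3 copy, had a median of 8908 CPM (7441 to 11354) in HLKO and 11755 CPM (7394 to 14791) elsewhere. Serpina3n, the acute-phase copy, had 528 CPM (388 to 599) in HLKO and 511 CPM (291 to 1231) elsewhere.

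**Figure D3:**
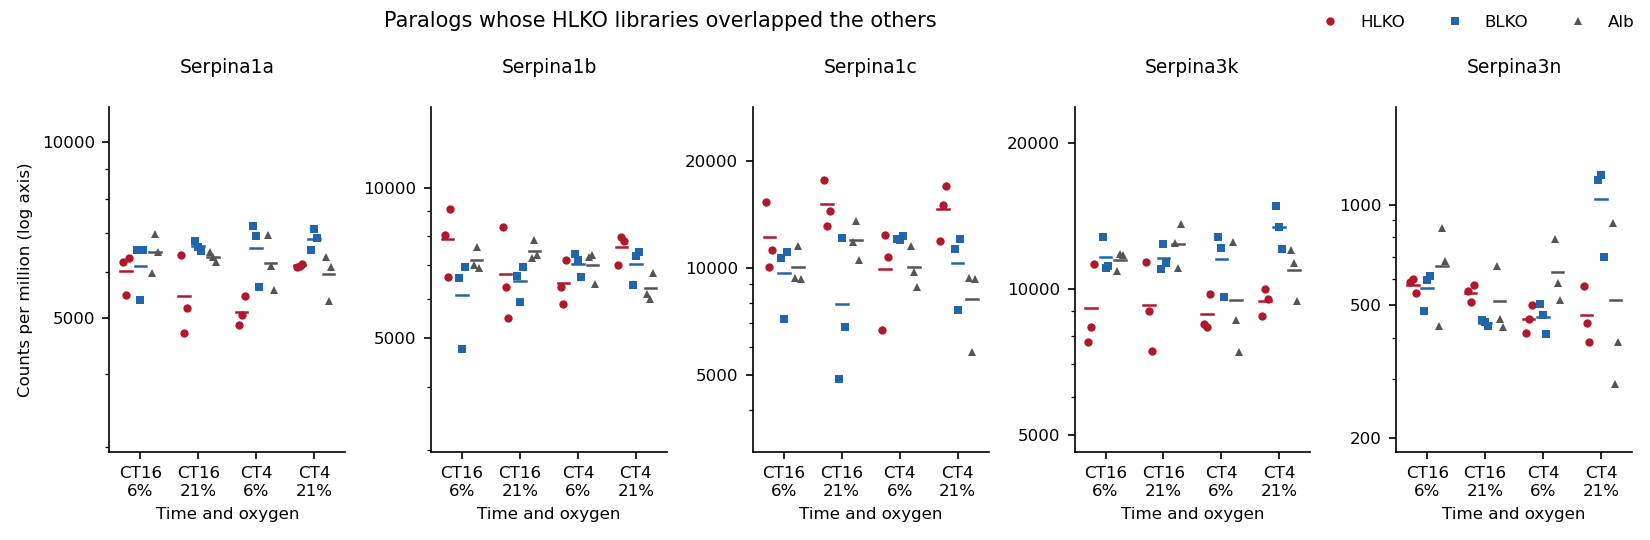
Level of the 5 members whose HLKO libraries overlapped those of the other genotypes, in CPM on a log axis, one point per library in each of the 12 groups, with bars at group means. Serpina3n reached 1231 CPM in BLKO CT4 21% libraries, above the 599 CPM of the highest HLKO library.

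The levels of the 5 Serpina1 genes were also summed, which removes the split of reads between copies but not a loss of reads that match several of them. The sum had a median of 27997 CPM (19640 to 35537) in the 12 HLKO libraries, 42215 CPM (33248 to 47761) in BLKO and 44587 CPM (31716 to 55522) in Alb, and its unscaled counts were 2.72%, 4.33% and 4.27% of all counts (medians). At 6% oxygen the log2 ratio of mean sums, HLKO over Alb, was −0.71 at CT16 and −0.91 at CT4, and HLKO over BLKO was −0.44 and −0.82. BLKO over Alb lay between −0.27 and 0.11 in the 4 conditions. The Serpina3 sum had a median of 10092 CPM (8431 to 12639) in HLKO, 12941 CPM (10298 to 16316) in BLKO and 12394 CPM (8278 to 14425) in Alb. These ratios were not tested.

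The make-up of the sums is given as shares, also without a test. Serpina1e was 3.31% of the Serpina1 sum in HLKO (median of 12 libraries), 31.0% in BLKO and 32.8% in Alb. Serpina1d was 6.10%, 13.7% and 12.8% in the same order. Serpina1c made up 46.6% in HLKO, 25.8% in BLKO and 22.7% in Alb, a share that grows when another copy falls. Serpina3c was 4.92% of the Serpina3 sum in HLKO, 0.0293% in BLKO and 0.0438% in Alb, and Serpina3k was 88.8%, 93.6% and 91.3%.

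**Figure D4:**
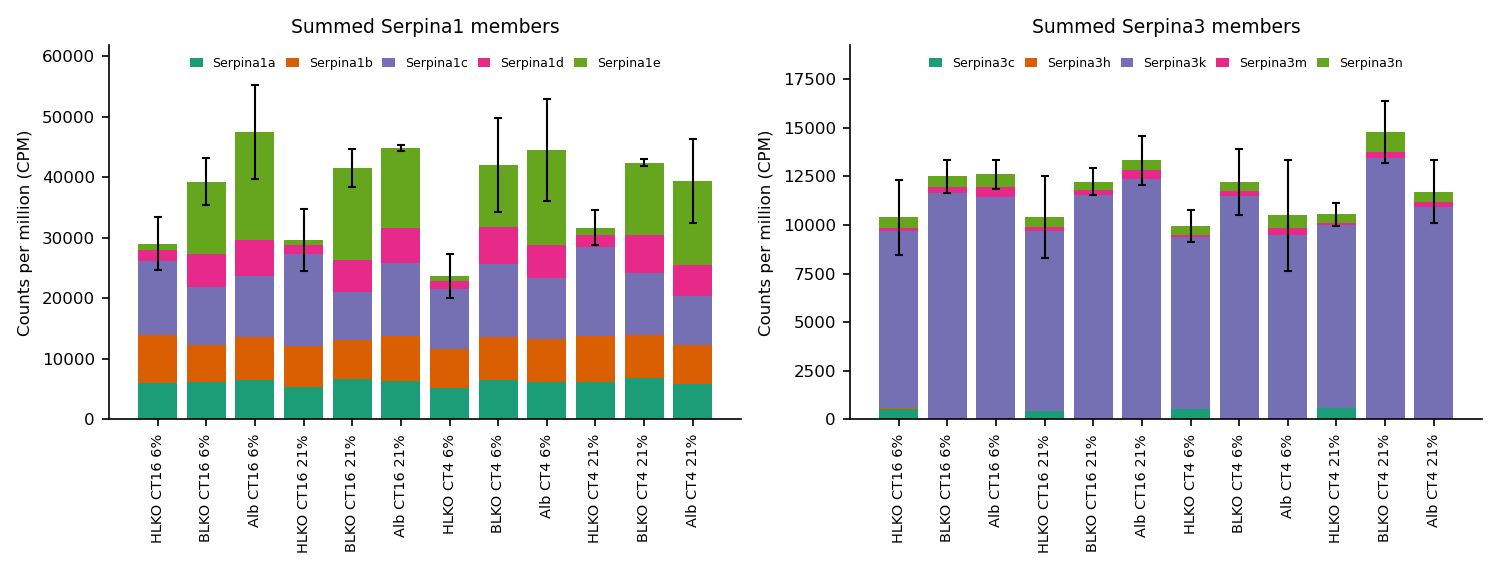
Mean level of the Serpina1 genes and of the Serpina3 genes in each of the 12 groups, stacked by gene, in CPM, with the SD of the sum over 3 libraries as the error bar. The Serpina1e segment is thin in the HLKO bars, at 3.31% of the sum against 31.0% in BLKO and 32.8% in Alb (medians), while Serpina3k fills most of every Serpina3 bar.

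Per kilobase of annotated exon, the order of levels changed with genotype. The length counts all exon bases, also those shared between copies. If reads that match several copies were dropped, levels of copies with much shared sequence are too low. The shared part was 74.2% of windows for Serpina1c and 29.5% for Serpina1b, so the order within a genotype is uncertain, most of all among Serpina1 copies. In HLKO livers Serpina1c led with a median of 9373 CPM per kb, followed by Serpina3k (4330), Serpina1a (3162), Serpina1b (2939), Serpina1d (1297), Serpina1e (615), Serpina3n (256), Serpina3c (244), Serpina3m (73.2) and Serpina3h (7.56). In BLKO the order was Serpina1c (8242 CPM per kb), Serpina1e (8072), Serpina3k (5894), Serpina1d (4117), Serpina1a (3595), Serpina1b (2814), Serpina3n (239), Serpina3m (159), Serpina3c (1.75) and Serpina3h (0.312). In Alb Serpina1e led (8216 CPM per kb), before Serpina1c (7047), Serpina3k (5597), Serpina1d (4040), Serpina1a (3438), Serpina1b (2952), Serpina3n (267), Serpina3m (232), Serpina3c (2.60) and Serpina3h (0.226). Among the 6 leading genes of BLKO and of Alb each range of libraries overlapped that of the next gene. In HLKO the ranges of Serpina3k and Serpina1a, of Serpina1b and Serpina1d, of Serpina1e and Serpina3n, of Serpina3c and Serpina3m and of Serpina3m and Serpina3h did not overlap. Serpina3c was level with Serpina3n in HLKO, where their ranges overlapped, and below it in every BLKO and Alb library.

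In BLKO livers few members were called against Alb. For BLKO against Alb at 6% oxygen 1 of 10 members was called at CT16, where 9.45% of all genes were called, and 0 of 10 at CT4, where 5.00% were. At 21% oxygen 1 of 10 was called at CT16 (5.38% of all genes) and 1 of 10 at CT4 (7.44%). These shares are near the background. At CT4 and 6% oxygen 1 member had an unadjusted p under 0.05, the lowest adjusted p was 0.181 (edgeR), and DESeq2 called 0.

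Serpina3m was the member called at CT16. At 6% oxygen it averaged 293 ± 52.9 CPM in BLKO and 477 ± 61.3 CPM in Alb (SD, n = 3 each), a log2 fold change of −0.71 ± 0.21 (adjusted p = 0.0261, edgeR). That call was lost, with adjusted p from 0.0576 to 0.142, without Alb A, Alb B, BLKO A or BLKO B. At 21% oxygen it had 269, 168 and 249 CPM in BLKO and 532, 460.3 and 384 CPM in Alb, which do not overlap, and a log2 fold change of −1.0 ± 0.21 (adjusted p = 0.00245, edgeR). Without BLKO CT16 21% B, 2 members in place of 1 were called there.

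Serpina3n was the member called at CT4 and 21% oxygen. It had 1192, 1231 and 698 CPM in BLKO and 882, 291 and 387 CPM in Alb, ranges that overlap through Alb A. The log2 fold change was 1.0 ± 0.26 (adjusted p = 0.0149, edgeR). Leaving out Alb B, Alb C, BLKO A or BLKO B, or fitting the compared groups alone, gave adjusted p from 0.078 to 0.146. Of 27 other acute-phase and interleukin 6 genes, all tested, 5 rose and 1 fell in the same comparison, where 7.44% of all genes were called. Fga and Hamp, which encode a fibrinogen chain and the iron hormone hepcidin, rose by 1.36 ± 0.24 on the log2 scale (adjusted p = 0.000283, edgeR) and 1.11 ± 0.34 (adjusted p = 0.0419). The part of this list's change in the value of Serpina3n was not tested.

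Few members were called for 6% against 21% oxygen within a genotype. In HLKO 0 of 10 were called at CT16 (9.74% of all genes) and 2 of 10 at CT4 (14.4%). In BLKO 0 of 10 were called at CT16 (9.40% of all genes) and 1 of 10 at CT4 (4.63%). In Alb 0 of 10 were called at CT16 (13.5% of all genes) and 0 of 10 at CT4 (9.16%). For the 4 counts of 0, at most 1 member had an unadjusted p under 0.05 (Alb at CT4), the lowest adjusted p lay between 0.204 and 0.381 (edgeR), and DESeq2 called 0. Without Alb CT4 21% A 1 member was called in Alb at CT4, and without HLKO CT16 21% A 1 in HLKO at CT16.

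The 2 members called in HLKO at CT4 moved in opposite directions. Serpina1d was at 1182, 990.1 and 1727 CPM at 6% oxygen, against 2292, 1890.0 and 2219 CPM at 21% oxygen, a log2 fold change of −0.72 ± 0.16 (adjusted p = 0.00271, edgeR). Serpina3m was at 158, 80.7 and 77.3 CPM at 6% oxygen, against 76.1, 58.3 and 51.5 CPM at 21% oxygen. Its log2 fold change of 0.78 ± 0.22 (adjusted p = 0.0152, edgeR) was 0.36 without the 6% A library (adjusted p = 0.318) and had adjusted p of 0.0619 and 0.0982 without the 21% B and C libraries. Fitting the compared groups alone gave adjusted p = 0.0576 for it.

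Serpina3n was the member called in BLKO at CT4. It had 504, 468 and 409 CPM at 6% oxygen, against 1192, 1231 and 698 CPM at 21% oxygen, a log2 fold change of −1.18 ± 0.27 (adjusted p = 0.00605, edgeR). The groups did not overlap. Of the 27 other acute-phase genes 1 rose and 5 fell in that comparison, where 4.63% of all genes were called. Steap4, an iron and copper reductase induced in inflammation, was at 95.9 ± 19.9 CPM at 6% and 592 ± 229 CPM at 21% oxygen (SD, n = 3 each; −2.63 ± 0.38, adjusted p = 4.15e-05, edgeR), and Saa1, serum amyloid A, was at 62.6 ± 11.4 and 1634 ± 1233 CPM (−4.70 ± 1.40, adjusted p = 0.0452). The part of these genes' change in the Serpina3n value was not tested.

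Whether the response to 6% oxygen differed between genotypes was tested directly, and 0 of 10 members were called in any of the 4 tests. For HLKO minus Alb the tested value is the genotype difference at 6% oxygen minus that at 21% oxygen by which the members were chosen, so it is not independent of the choice. For HLKO minus Alb 0.875% of all genes were called at CT16 and 1.58% at CT4, and for BLKO minus Alb 0.116% and 0.190%. Serpina1d in HLKO minus Alb at CT4 had a difference of −0.82 ± 0.23 (adjusted p = 0.0595, edgeR), and 3 members had an unadjusted p under 0.05 there. Serpina3n in BLKO minus Alb at CT4 had a difference of −1.45 ± 0.37 (adjusted p = 0.106, edgeR), with 2 members under an unadjusted p of 0.05. DESeq2 called 1 member in each of those. So did edgeR without HLKO CT4 6% C for HLKO minus Alb, and without Alb CT4 21% A or BLKO CT4 21% C for BLKO minus Alb. At CT16 the lowest adjusted p was 0.623 for HLKO and 0.720 for BLKO (edgeR), with 0 members under an unadjusted p of 0.05 and 0 called by DESeq2.

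Between circadian times at 21% oxygen, 2 of 10 members were called in HLKO (11.9% of all genes), 1 of 10 in BLKO (2.19%) and 0 of 10 in Alb (1.27%). Serpina3m was at 158.5, 165 and 145 CPM at CT16 in HLKO, against 76.1, 58.3 and 51.5 CPM at CT4. Its log2 fold change was 1.34 ± 0.22 (adjusted p = 8.85e-05, edgeR), and the groups did not overlap. In Alb Serpina3m was at 532, 460.3 and 384 CPM at CT16, against 333, 245 and 226 CPM at CT4, a difference of 0.78 ± 0.21 that was not called (adjusted p = 0.0577, edgeR). There 2 members had an unadjusted p under 0.05, and DESeq2 called 1, as did edgeR without Alb CT4 21% A. Whether the time difference itself differed between genotypes was not tested.

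Serpina1d in HLKO was at 1973, 1144 and 1341 CPM at CT16, against 2292, 1890.0 and 2219 CPM at CT4, ranges that overlap. Its log2 fold change of −0.52 ± 0.16 (adjusted p = 0.0334, edgeR) was lost without CT16 B, CT16 C, CT4 A or CT4 C (adjusted p 0.0885 to 0.237) and in a fit of the compared groups alone (0.0549). Serpina3n in BLKO was at 452, 444 and 435 CPM at CT16, against 1192, 1231 and 698 CPM at CT4, which do not overlap. The log2 fold change was −1.23 ± 0.27 (adjusted p = 0.00910, edgeR), with adjusted p of 0.0589 and 0.0541 without CT4 A and CT4 B. The BLKO CT4 21% libraries also enter the 2 comparisons above in which Serpina3n was called. Of the 27 other acute-phase genes 0 rose and 6 fell between these times in BLKO (2.19% of all genes called), among them Stat3, a mediator of interleukin 6 signals, at 70.3 ± 6.66 CPM at CT16 and 158 ± 34.5 CPM at CT4 (SD, n = 3 each; −1.16 ± 0.23, adjusted p = 0.00360, edgeR).

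Neighbouring serpins of the cluster were called too. Of 15 other serpins listed for the cluster, 9 were in the table and 8 were tested. For HLKO against Alb at 6% oxygen 2 rose and 0 fell at CT16 (9.88% of all genes called), and 2 rose and 1 fell at CT4 (3.50%). For BLKO against Alb 1 rose and 2 fell at CT16 (9.45%) and 0 were called at CT4 (5.00%). Serpina11, whose product is a poorly characterised liver serpin, averaged 506 ± 132 CPM in HLKO livers, against 172 ± 40.6 CPM in Alb livers, at CT16 (1.56 ± 0.19, adjusted p = 2.29e-06, edgeR) and 418 ± 42.8 and 188 ± 20.1 CPM at CT4 (1.15 ± 0.19, adjusted p = 0.000228). It lies between Serpina1e and Serpina3c (103980243 to 103989957). Serpina4-ps1, a pseudogene in the same gap, rose by 1.65 ± 0.43 on the log2 scale in HLKO at CT16 (adjusted p = 0.0141, edgeR) and by 1.59 ± 0.44 at CT4 (adjusted p = 0.0376), and fell by 1.70 ± 0.45 in BLKO at CT16 (adjusted p = 0.0111). Serpina3g, which lies between Serpina3c and Serpina3h, averaged 1.3 ± 0.13 CPM in HLKO livers, against 7.98 ± 3.42 CPM in Alb livers, at CT4 (−2.64 ± 0.47, adjusted p = 0.000778, edgeR). Serpina6, which encodes corticosteroid-binding globulin, averaged 103 ± 21.9 CPM in BLKO livers, against 320 ± 26.1 CPM in Alb livers, at CT16 (−1.64 ± 0.27, adjusted p = 5.59e-05, edgeR).

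The whole chromosome was compared with the rest of the genome, leaving the members out. For HLKO against Alb at 6% oxygen, 15.9% of 321 chromosome 12 genes were called at CT16 (18 higher, 33 lower) and 9.60% of 9031 genes on other chromosomes. At CT4 6.23% (8 higher, 12 lower) and 3.36% were called. For BLKO against Alb the shares on chromosome 12 and elsewhere were 6.85% and 9.57% at CT16 and 2.49% and 5.12% at CT4. In windows of 10 Mb, the window that holds Hif1a, from 70 to 80 Mb, had 19.5% of 41 genes called for HLKO against Alb at CT16 and 7.32% at CT4. The window that holds the serpins, from 100 to 110 Mb, had 19.1% and 12.8% of 47 genes called with the members left out. Other serpins of the cluster stayed in. Among the called genes were Serpina11 and Serpina4-ps1 at both times and Serpina3g at CT4, so this share is not separate from the cluster. The other windows with tested genes lay between 0% (10 to 20 Mb, 12 genes) and 33.3% (40 to 50 Mb, 6 genes) at CT16 and between 0% (4 windows) and 21.7% (20 to 30 Mb, 23 genes) at CT4. These shares are a description and were not tested.

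**Figure D5:**
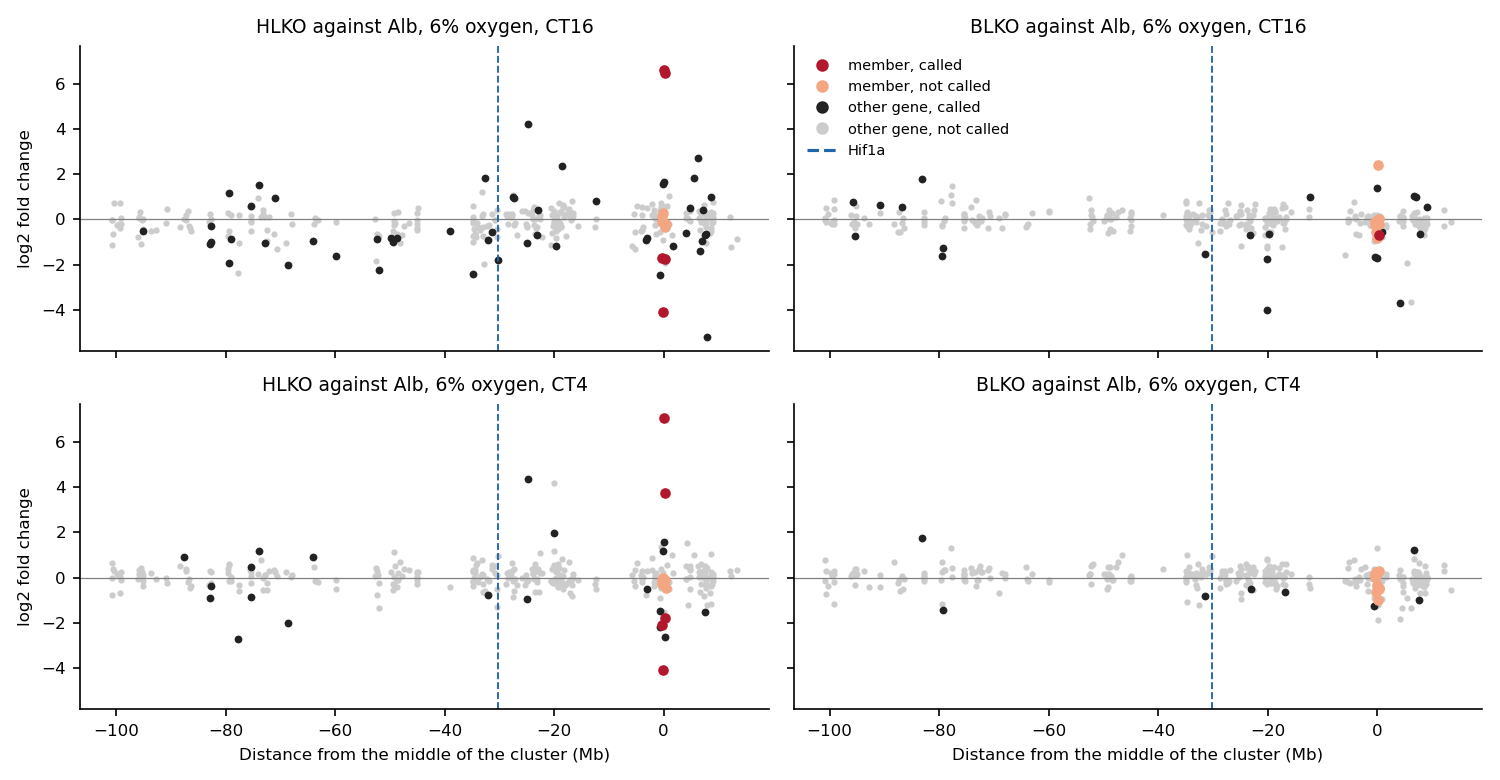
Log2 fold change at 6% oxygen of every tested chromosome 12 gene against its distance from the middle of the serpin cluster, in Mb, for HLKO over Alb and for BLKO over Alb at CT16 and CT4, with the members marked and a dashed line at Hif1a. In the HLKO panels Serpina3c and Serpina3h lie high and Serpina1e low at the cluster, and 15.9% of the other chromosome 12 genes were called at CT16, against 6.85% in the BLKO panel.

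The genes outside the list whose levels followed a member most closely over the 36 libraries are given as a description, since all points share libraries and the HLKO genotype. For Serpina3c they were Serpina11 (Pearson r 0.945, chromosome 12), Gdpd3 (0.941, chromosome 7) and Rad51b (0.918, chromosome 12). For Serpina3h they were Serpina11 (0.934), Gdpd3 (0.934) and Ephb6 (0.896, chromosome 6). For Serpina1d they were Ahr (0.886, chromosome 12), Pttg1 (0.881, chromosome 11) and L3hypdh (0.849, chromosome 12). For Serpina1e they were Ahr (0.868), Slx1b (0.851, chromosome 7) and Selenbp2 (0.832, chromosome 3). Serpina3m was followed most closely by Ndufc2 (0.879, chromosome 7), Prdx3 (0.829, chromosome 19) and Echs1 (0.827, chromosome 7), which encode mitochondrial proteins. Serpina3n was followed by Lrg1 (0.805, chromosome 17), Cpn2 (0.757, chromosome 16) and Lcn2 (0.739, chromosome 2), of which Lrg1 and Lcn2 are acute-phase genes.

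Liver also makes protease inhibitors that are encoded outside the cluster. Of 22 such inhibitors listed, 21 were tested for HLKO against Alb at 6% oxygen. At CT16 1 rose and 2 fell, with 9.88% of all genes called, and at CT4 0 rose and 3 fell, with 3.50%. Fetub, an inhibitor of astacin-type proteases, averaged 1223 ± 169 CPM in HLKO livers, against 813 ± 151 CPM in Alb livers, at CT16 (SD, n = 3 each; 0.59 ± 0.15, adjusted p = 0.0125, edgeR), and Mug2, a murinoglobulin, was at 82.4 ± 86.8 and 275 ± 31.3 CPM (−1.70 ± 0.47, adjusted p = 0.0198). For BLKO against Alb 4 of 21 rose and 3 fell at CT16, with 9.45% of all genes called, and 3 rose and 3 fell at CT4, with 5.00%. The medians of this list were −0.0437 and −0.0733 for HLKO and 0.0892 and 0.0485 for BLKO.

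Cell and tissue markers beside these results were as follows, where 9.88% of all genes were called at CT16 and 3.50% at CT4. Of 9 tested hepatocyte markers, 2 rose and 1 fell in HLKO against Alb at CT16 and 6% oxygen, and 0 changed at CT4. Of 10 tested Kupffer markers, 0 changed at CT16 and 5 were lower in HLKO than in Alb at CT4. Their summed level (11 genes) at CT4 was 243.9 to 298 CPM in HLKO and 356 to 668 CPM in Alb. At CT4 and 21% oxygen the sum was 199 to 312 CPM in HLKO and 186 to 328 CPM in Alb. It was 201 to 248 CPM in BLKO at CT4 and 6% oxygen. Among the CT4 groups Alb at 6% oxygen was thus the highest. At CT16 and 6% oxygen summed stellate markers were at 307.5 to 338 CPM in HLKO and 213 to 281 CPM in Alb. At CT4 they overlapped. The 1 red cell gene in the table was at 225 to 288 and 167 to 186 CPM at CT16. At CT4 it was at 48.9 to 97.3 and 164 to 214.5 CPM. The 1 pancreas gene was at 87.7 to 103 and 37.1 to 49.6 CPM at CT16 and also higher in HLKO at CT4. Endothelial, bile duct, lymphocyte and neutrophil sums overlapped. Of the 27 acute-phase genes 0 rose and 6 fell at CT16, and 0 rose and 5 fell at CT4. Of 7 genes of the male liver pattern 1 rose and 0 fell at each time, with summed levels of 10388 to 11504 CPM in HLKO and 7705 to 8650 CPM in Alb at CT16 and 9993 to 12136 and 5207 to 8474 CPM at CT4. Of 9 listed female-pattern genes 3 were in the table, at 0 to 97.2 CPM in sum across the HLKO libraries, 0 to 1.47 CPM in BLKO and 0.353 to 8.23 CPM in Alb. Of 10 hepatocyte transcription factors 1 rose at CT16 and 0 changed at CT4, and the one that rose was Cebpa, at 668 ± 131 CPM in HLKO livers, against 460 ± 28.8 CPM in Alb livers (SD, n = 3 each; 0.54 ± 0.15, adjusted p = 0.0228, edgeR). The part of these markers in the members' differences was not tested.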

How the data were processed

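The 36 libraries were made from total RNA of mouse livers, and 3 further samples of the series are not analysed here. Per the submitters' processing notes the tools were STAR 2.4.2a, cutadapt, DESeq2 and HTSeq, with the mm10 genome. The deposited raw columns hold read counts per gene, made by the authors. The authors' deposited normalized columns hold a signal equal to the raw count times 1 constant per library (largest relative range 9.8e-15) and were not used. Of the gene symbols 98.4% had a position in GENCODE M21.

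Genes were kept by filterByExpr (count minimum 10), which left 9483 of 11873. After TMM scaling, all 36 libraries in 12 groups entered 1 quasi-likelihood fit in edgeR 4.0.16 (R 4.3.3), without pairing, and p-values were adjusted by Benjamini and Hochberg over all tested genes. The 21 tested comparisons share libraries. Replicates differed by more than counting error (chi-square per degree of freedom 3.59 to 29.8 over 36 pairs). The script was tested on simulated data. DESeq2 1.42.0, RLE scaling, no filter, the compared groups alone, a replicate block and leaving out each library were tried. In each comparison the called members are named and the others are given by count. Other genes are named from fixed lists and by the 3 highest correlations per member. The members and lists were chosen with earlier results of these data known.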

Additional observations from a re-analysis of the deposited data

How the results depend on the processing

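For HLKO against Alb at 6% oxygen, 5 members were called at each time under every alternative, and no call of any member changed direction. For HLKO against BLKO the count lay between 5 and 6. Both counts include Serpina3h, whose calls support nothing. Fitting the compared groups alone gave 0 members for BLKO against Alb at 21% oxygen and CT4, in place of 1. DESeq2 gave 1 member in place of 0 for CT16 against CT4 in Alb and for the response to 6% oxygen at CT4 in HLKO minus Alb and in BLKO minus Alb. Leaving out single libraries gave 0 to 1 members for BLKO against Alb at CT4 21% and CT16 6%, for the oxygen response of Alb at CT4 and of HLKO at CT16, for time in Alb and in BLKO, and for both differences of response at CT4. It gave 1 to 2 for BLKO against Alb at CT16 21%, the oxygen response of HLKO at CT4 and time in HLKO. The libraries behind lost calls are named in the report, and the cause was not tested. Without Alb CT16 21% B the log2 fold change of Serpina3h in HLKO against Alb at CT16 and 21% oxygen was 5.73 in place of 4.39. No pairing by the letters A to C was seen (in 0 of 19 comparisons did every one of the 3 same-letter pairs correlate above 0.1). With 3 libraries per group this check cannot exclude pairing or a shared batch. The replicate block changed no call of a member. Depth limits Serpina3h, with 0 to 4 reads per BLKO or Alb library.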
